A study of Mus musculus with 15 samples.

Results

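Mitochondria in heart muscle are joined and divided by a small set of membrane proteins, and damaged ones are marked and taken up for degradation by mitophagy. The 10 genes described here encode the core of these steps: Mfn1, Mfn2 and Opa1 for fusion, Dnm1l, Fis1 and Mff for fission, and Pink1, Bnip3, Bnip3l and Fundc1 for mitophagy. They were chosen by symbol from a table of read counts with 47069 genes, where each symbol occurred in 1 row, and all 10 passed the filter on low counts in each comparison.

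Messenger RNA was sequenced from the left ventricle of C57BL/6 mice in 15 libraries, 5 per group. The rHCI group had a myocardial infarct and, 7 days later, an injection into the heart muscle of rHCI, a hydrogel of recombinant human collagen type I. The PBS group had the same infarct and, 7 days later, an injection of phosphate-buffered saline, and hearts of both groups were taken 2 days after the injection. The Sham group had a sham operation and no treatment and was taken at an age of 10 weeks, matched to the others. Sham hearts had no injection. In a comparison with Sham the infarct therefore cannot be told apart from the injection, and the labels do not say whether the tissue came from the infarct or from muscle away from it.

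Fusion of the outer membrane is carried out by the mitofusins Mfn1 and Mfn2, which are large GTPases, and fusion of the inner membrane by the related GTPase Opa1, which also shapes the cristae. In fission, receptors in the outer membrane such as Mff and Fis1 recruit the GTPase Dnm1l (also called Drp1), which constricts the organelle. Pink1 is a kinase that accumulates on depolarised mitochondria and activates the ubiquitin ligase parkin, whereas Bnip3, Bnip3l (also called Nix) and Fundc1 are outer membrane receptors that bind LC3 family proteins directly. Bnip3 and Bnip3l are known as genes that respond to low oxygen, and cardiac muscle is among the tissues richest in mitochondria.

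RefSeq promoter windows, which run from 250 bases before to 50 bases after a gene's start on GRCm38.p6, were listed for 9 of the 10 genes, and Bnip3l had none. There were 14 windows in all, since 4 genes have more than 1 start, up to 3 for Mfn2. Because 9 of the 10 genes moved in 1 direction, the windows were searched on both strands for 7 motifs. The 150 bases before the start are printed for 4 genes picked after the matches were seen. Each held a match to the sites of NRF1 or GABPA, which are known as activators of nuclear genes for mitochondria. Bnip3 held a match to the hypoxia response core as well. Fis1 also held a GABPA site and Mfn2 the hypoxia response core, and neither is printed. Capitals mark matches to CCGGAAGT (GABPA) in Mfn1, to the NRF1 core (GCGCA, any base, then GCGC) in Opa1 and Pink1, and to the NRF1 core followed by CACGTG in Bnip3. Each sequence is given 5′ to 3′ on the gene's own strand.
Mfn1, chr3:32529332-32529481, plus strand: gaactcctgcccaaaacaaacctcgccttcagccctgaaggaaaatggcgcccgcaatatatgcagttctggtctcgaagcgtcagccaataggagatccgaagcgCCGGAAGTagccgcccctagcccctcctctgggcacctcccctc
Opa1, chr16:29579184-29579333, plus strand: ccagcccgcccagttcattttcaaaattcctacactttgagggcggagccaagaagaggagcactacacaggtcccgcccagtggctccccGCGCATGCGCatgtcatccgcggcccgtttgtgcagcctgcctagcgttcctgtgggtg
Pink1, chr4:138326297-138326446, minus strand: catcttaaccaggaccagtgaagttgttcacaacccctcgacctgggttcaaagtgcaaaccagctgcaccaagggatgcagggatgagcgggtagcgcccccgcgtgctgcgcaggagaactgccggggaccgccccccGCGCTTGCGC
Bnip3, chr7:138909507-138909656, minus strand: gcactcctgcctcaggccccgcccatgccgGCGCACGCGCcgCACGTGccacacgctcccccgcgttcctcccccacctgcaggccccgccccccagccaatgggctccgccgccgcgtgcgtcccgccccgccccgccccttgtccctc
The NRF1 core began 59 bases before the start in Opa1, 10 bases before it in Pink1, where it reads on the opposite strand, and 120 bases before it in Bnip3. The GABPA site began 44 bases before the start in Mfn1 and 18 bases before the first listed start in Fis1. The NRF1 core was in 3 of the 14 windows, 1 each of Opa1, Pink1 and Bnip3, against 4.60% of 32851 mouse windows, and the GABPA site in 3, that of Mfn1 and both of Fis1, against 3.89%. The hypoxia response core ACGTG was in 3 windows, 2 of Mfn2 and that of Bnip3, where it lay inside the CACGTG, against 19.6% of windows, and CACGTG itself was in 7.15% of windows. The 2 Mfn2 windows overlap and hold the same site. By gene, the NRF1 core was in 3 members, the GABPA site in 2 and the hypoxia response core in 2. The shares of 27025 mouse genes were 5.19%, 4.31% and 21.8%. A CCAAT box was in 6 of the 14 windows, each of another gene, against 37.4%. The estrogen-related receptor motif AAGGTCA (4.72% of windows) and the FoxO site GTAAACA (3.65%) were in 0 of the 14. These are counts of letters in a window, and binding was not measured.

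Depth ranged from 48699092 to 62577074 counts in rHCI libraries, from 32978702 to 103356830 in PBS libraries and from 53211878 to 100899246 in Sham libraries. All 16 cardiomyocyte markers were detected in each group, and their summed level was 53906 to 76449 CPM in rHCI hearts, 52098 to 71031 CPM in PBS hearts and 88588 to 101374 CPM in Sham hearts (CPM, read counts scaled to a common library size with TMM factors). Fibroblast markers summed to 13108 to 21508, 14331 to 21360 and 1124 to 1434 CPM in rHCI, PBS and Sham hearts, and macrophage markers to 751 to 969, 757 to 1043 and 204 to 250 CPM. Genes encoded in the mitochondrial DNA took 9.77% to 14.5% of counts in rHCI, 10.1% to 12.5% in PBS and 15.3% to 17.2% in Sham libraries. In PBS 6, 7 lung and liver markers summed to 66.3 CPM, against at most 0.553 CPM in any other library. The labels carry a number, read here as a sequencing run although they do not explain it, that 12 libraries share, while PBS 6, rHCI 1 and Sham 19 have others.

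Transcripts of 9 of the 10 genes were lower in both groups of infarcted hearts than in Sham hearts, and Bnip3l was higher, although with library totals as the scale Fundc1 and, in rHCI hearts, Fis1 had slightly positive values that were not called. The largest difference was that of Pink1, which fell by 42.3% in rHCI hearts and fell by 50.8% in PBS hearts against Sham, and the smallest falls were those of Fis1 and Fundc1. At an adjusted p under 0.05 (edgeR, quasi-likelihood, Benjamini-Hochberg over all genes tested), 9 genes were lower and 1 was higher in rHCI against Sham (adjusted p 1.20e-05 to 0.0140), and the same counts were found in PBS against Sham (adjusted p 7.36e-08 to 0.00117). The background was high: 63.9% of 16076 genes were called in rHCI against Sham, 29.7% as lower and 34.1% as higher, and 71.4% of 16207 genes in PBS against Sham, 34.9% as lower and 36.5% as higher. The median log2 fold change of the 10 genes was -0.39 in rHCI against Sham, where the median of all genes tested was 0.0017, and -0.48 in PBS against Sham, where it was -0.0086. Both comparisons use the same Sham libraries. Cardiomyocyte markers fell in both groups as well, 14 of 16 in each, with a median of -0.51 in rHCI hearts and -0.65 in PBS hearts. In tissue RNA, fewer cells of a type and less RNA per cell cannot be told apart, and the part of the lower cardiomyocyte level in these values was not tested beyond the comparisons on a mitochondrial scale and on the marker score given further on.

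**Figure D1:**
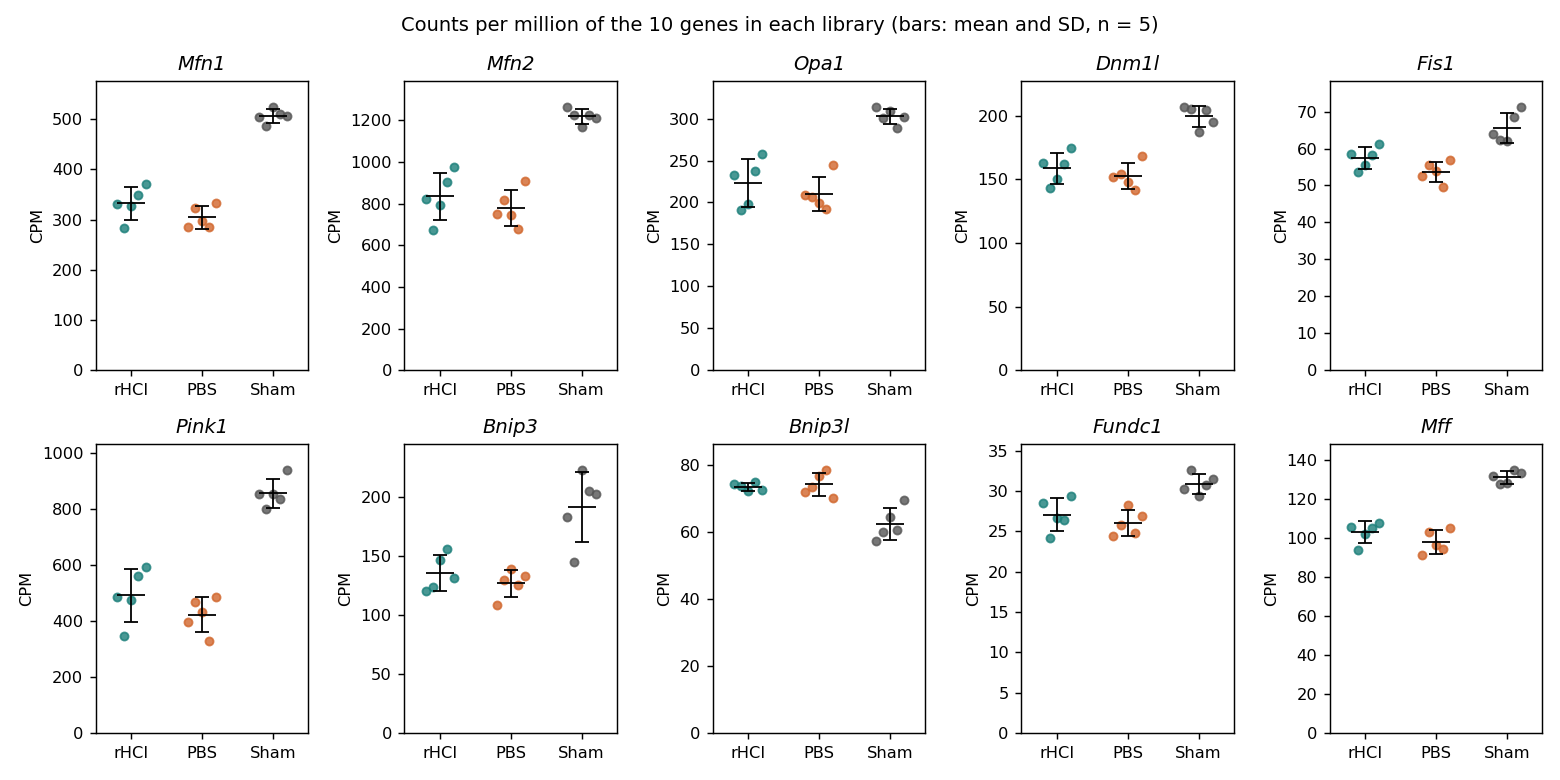
Level of each of the 10 genes in CPM (vertical axis, starting at 0) in rHCI, PBS and Sham hearts, 1 point per library, with bars for the mean and SD of 5 libraries. For 9 genes the Sham libraries have the highest mean, with Sham 17 inside the rHCI range for Bnip3 and the Sham and rHCI ranges touching for Fundc1, and for Bnip3l they lie lowest.

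Values per library are given in the order rHCI 1, 3, 7, 11 and 13, PBS 2, 6, 9, 12 and 14, and Sham 16 to 20. Mfn1, the mitofusin that tethers outer membranes (ENSMUSG00000027668; GRCm38 chromosome 3, 32529465 to 32579239), had 332, 283, 327, 349 and 371 CPM in rHCI hearts, 285, 323, 296, 284 and 333 CPM in PBS hearts and 505, 487, 523, 509.6 and 506 CPM in Sham hearts. All infarcted hearts lay below all Sham hearts, and the Sham values differed little among themselves. The log2 fold change was -0.60 ± 0.068 (SE) in rHCI against Sham (edgeR adjusted p 1.20e-05) and -0.74 ± 0.054 in PBS against Sham (adjusted p 7.36e-08), the smallest adjusted p among the 10 genes.

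Mfn2, the second mitofusin, which also links mitochondria to the endoplasmic reticulum (ENSMUSG00000029020; chromosome 4, 147873599 to 147904704), had 821, 675, 795, 906 and 977 CPM in rHCI hearts, 751, 816, 744, 676 and 907 CPM in PBS hearts and 1262, 1226, 1167, 1226 and 1212 CPM in Sham hearts. Its infarcted hearts also stayed below the Sham range, with rHCI 3 and PBS 12 lowest in their groups and rHCI 13 and PBS 14 highest. The log2 fold changes were -0.54 ± 0.089 in rHCI hearts and -0.65 ± 0.073 in PBS hearts (edgeR adjusted p 2.25e-04 and 3.51e-06).

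Opa1, the GTPase of the inner membrane (ENSMUSG00000038084; chromosome 16, 29579334 to 29654884), had 233, 190.4, 198, 237 and 258 CPM in rHCI hearts, 209, 207, 199, 193 and 244 CPM in PBS hearts and 313, 301, 309, 289 and 301 CPM in Sham hearts. The ranges did not overlap with Sham, and rHCI 3 and PBS 12 were again the lowest of their groups. Its log2 fold change against Sham was -0.43 ± 0.079 in rHCI and -0.53 ± 0.061 in PBS hearts (edgeR adjusted p 4.73e-04 and 4.53e-06).

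The fission genes were lower too, with smaller log2 fold changes than the 3 fusion genes, a difference between genes that was not tested. Dnm1l, the constricting GTPase (ENSMUSG00000022789; chromosome 16, 16312230 to 16358959), had 163, 143, 150.5, 162 and 175 CPM in rHCI hearts, 152, 154, 148, 142 and 169 CPM in PBS hearts and 207, 205, 187, 205 and 195 CPM in Sham hearts. The groups of infarcted hearts ended below the lowest Sham heart, and the log2 fold changes were -0.32 ± 0.059 in rHCI and -0.39 ± 0.052 in PBS hearts (edgeR adjusted p 4.52e-04 and 1.79e-05). Mff, a receptor for Dnm1l (ENSMUSG00000026150; chromosome 1, 82724890 to 82752394), had 106, 93.7, 102, 105 and 108 CPM in rHCI hearts, 90.9, 103, 96.2, 94.3 and 105 CPM in PBS hearts and 132, 127, 128, 135 and 133 CPM in Sham hearts. Its ranges were separate from Sham as well, with log2 fold changes of -0.34 ± 0.048 and -0.42 ± 0.046 in rHCI and PBS hearts (edgeR adjusted p 6.33e-05 and 2.97e-06). Exons of Dnm1l, Mff and Bnip3 share bases with genes on the opposite strand, and no source used here gives the strand setting of the authors' counting. The partner of Mff, C430014B12Rik, had at most 0.605% of its level. The other partners, Gm49521 and Gm45507, were not among the genes counted, so their levels are unknown. Fis1, a small outer membrane protein (ENSMUSG00000019054; chromosome 5, 136953275 to 136966234), ranged over 53.6 to 61.1 CPM in rHCI, 49.7 to 56.9 CPM in PBS and 62.1 to 71.2 CPM in Sham hearts, so that the highest infarcted heart stood just under the lowest Sham heart. Its log2 fold changes were -0.19 ± 0.054 in rHCI and -0.29 ± 0.052 in PBS hearts (edgeR adjusted p 0.00972 and 2.26e-04).

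Pink1, the kinase that starts parkin-dependent mitophagy (ENSMUSG00000028756; chromosome 4, 138313409 to 138326307), had 486, 347, 474, 559.6 and 593 CPM in rHCI hearts, 398, 468, 432, 329 and 487 CPM in PBS hearts and 855, 801, 852, 836 and 939.8 CPM in Sham hearts. Every infarcted heart was under every Sham heart, and rHCI 3 and PBS 12 were the lowest of their groups. The log2 fold changes were -0.79 ± 0.12 in rHCI hearts and -1.02 ± 0.093 in PBS hearts (edgeR adjusted p 1.13e-04 and 5.47e-07). Its gene shares exon bases with Gm27646 and Mir7019 on the same strand, both listed at 0 in all libraries.

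Bnip3 and Bnip3l, which encode related LC3-binding receptors, moved in opposite directions. Bnip3 (ENSMUSG00000078566; chromosome 7, 138890836 to 138909519) had 120.3, 123, 147, 156 and 132 CPM in rHCI hearts, 109, 129.6, 139, 125 and 133 CPM in PBS hearts and 183, 145, 223, 205 and 203 CPM in Sham hearts. Sham 17, at 145 CPM, was the lowest Sham heart, with the next at 183 CPM, and lay inside the rHCI range. The PBS range stayed below all Sham values. The log2 fold change was -0.49 ± 0.11 in rHCI and -0.60 ± 0.10 in PBS hearts (edgeR adjusted p 0.00183 and 1.29e-04). Bnip3l (ENSMUSG00000022051; chromosome 14, 66985239 to 67008877) had 74.6, 73.7, 72.2, 75.1 and 72.7 CPM in rHCI hearts, 72.2, 73.7, 76.9, 78.6 and 70.4 CPM in PBS hearts and 57.4, 60.1, 64.6, 60.6 and 69.6 CPM in Sham hearts. Here the infarcted hearts were all above the highest Sham heart, Sham 20, though by less than 1 CPM for PBS 14, and rHCI hearts were nearly alike. The gene was higher by 0.25 ± 0.053 in rHCI and 0.25 ± 0.055 in PBS hearts on the log2 scale (edgeR adjusted p 0.00155 and 0.00117). Reads of the pseudogene Bnip3l-ps were at most 0.749% of the Bnip3l level in any library, as counted by the authors.

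Fundc1, a receptor of mitophagy under low oxygen (ENSMUSG00000025040; chromosome X, 17556564 to 17572325), ranged over 24.1 to 29.4 CPM in rHCI, 24.4 to 28.2 CPM in PBS and 29.4 to 32.6 CPM in Sham hearts. The highest rHCI heart reached the lowest Sham heart, and the PBS range did not. The log2 fold changes were -0.19 ± 0.058 and -0.25 ± 0.050 in rHCI and PBS hearts (edgeR adjusted p 0.014 and 5.66e-04). CPM ranges of infarcted and Sham hearts were separate for 8 of the 10 genes in rHCI against Sham, all but Bnip3 and Fundc1, beside 48.7% of the 16634 genes past a filter over all libraries, and for 10 of 10 in PBS against Sham, beside 58.2%. Leaving out PBS 6, the library with lung and liver markers, or using the shared run alone, kept all 10 genes past the threshold in PBS against Sham.

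The directions depended on the scale for the genes with small changes. With library totals and no TMM factor, the median of all genes moved by 0.22 in rHCI against Sham and by 0.27 in PBS against Sham, and 8011 genes were called higher and 2128 lower in rHCI, against 5487 and 4781 with TMM. In PBS against Sham, library totals gave 8938 genes higher and 2610 lower, against 5921 and 5653 with TMM. Dnm1l, at -0.11 (edgeR adjusted p 0.0791), lost its call in rHCI against Sham on library totals. On that scale Fundc1 had 0.032 in rHCI against Sham and 0.023 in PBS against Sham, and Fis1 had 0.034 and -0.019, none of them past the threshold. Less the median of all genes on library totals, Fundc1 was -0.19 in rHCI and -0.24 in PBS against Sham, and Fis1 -0.19 and -0.28.

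**Figure D2:**
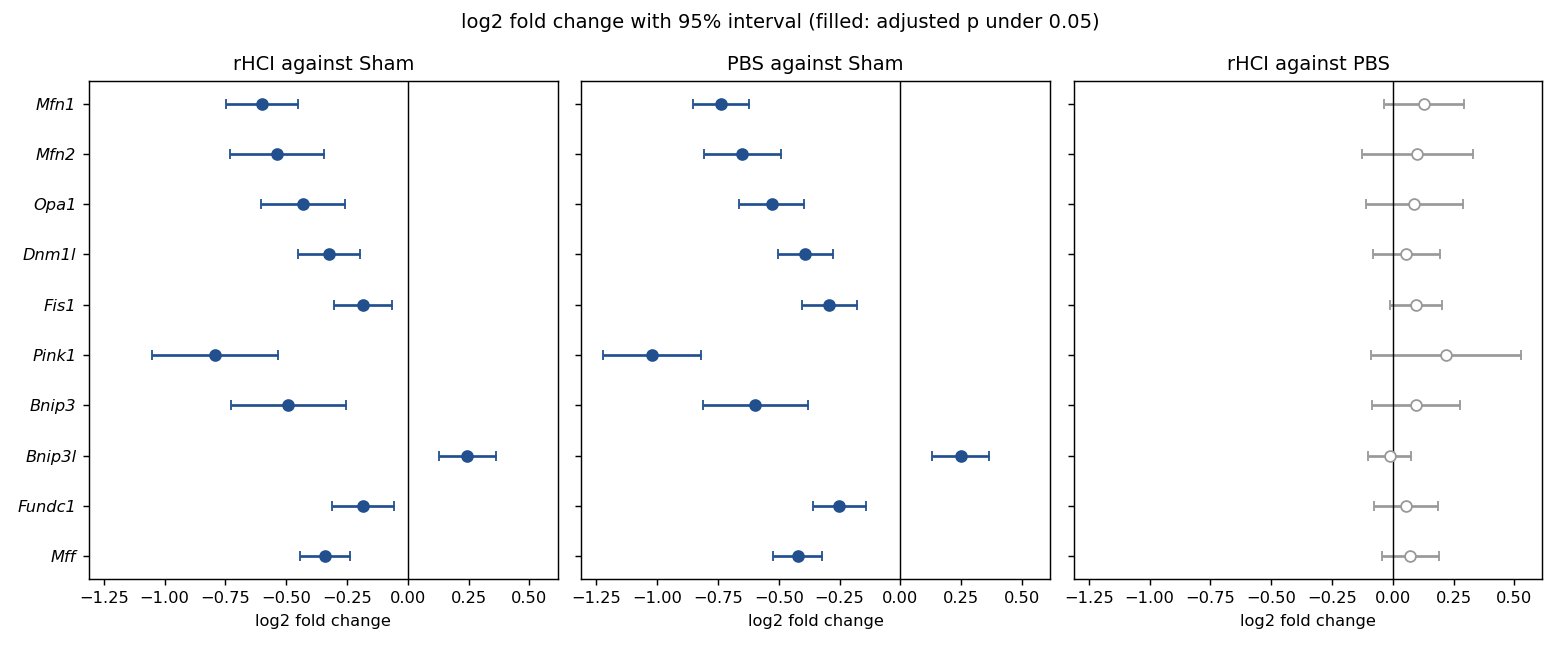
log2 fold change (horizontal axis) of each gene with its 95% interval in rHCI against Sham, PBS against Sham and rHCI against PBS, filled where the edgeR adjusted p was under 0.05. The 2 comparisons with Sham each have 9 filled points left of 0 and Bnip3l to the right on the TMM scale (on library totals Fundc1 in both, and Fis1 in rHCI against Sham, lie right of 0 and are not called), and rHCI against PBS has open points only.

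The next comparison asked whether the 10 genes fell by more or less than other nuclear genes of the organelle. All 22 mitochondrial reference genes, among them Cs, Vdac1 and Cox4i1, were called lower in both comparisons with Sham, with a median log2 fold change of -0.54 in rHCI and -0.68 in PBS hearts, so libraries were also scaled to an equal mean log2 CPM of these genes. On that scale the median of all genes was 0.54 in rHCI against Sham and 0.63 in PBS against Sham. Values near 0 mean a fall like the mean fall of the reference genes. Pink1 was still lower, at -0.28 ± 0.063 in rHCI and at -0.39 ± 0.059 in PBS hearts (edgeR adjusted p 0.00129 and 3.27e-05). Mfn2 was at -0.022 ± 0.042 and -0.017 ± 0.042, Mfn1 at -0.077 ± 0.050 and -0.10 ± 0.047, Opa1 at 0.088 ± 0.058 and 0.10 ± 0.052, and Bnip3 at 0.043 ± 0.12 and 0.047 ± 0.10 in rHCI and PBS hearts, and none of these 4 passed the threshold in either comparison (smallest edgeR adjusted p 0.0597, of Mfn1 in PBS).

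The other 5 genes were higher relative to the mean of the reference genes in both comparisons. The 22 reference genes themselves differed on this scale. Of these, 4 were called higher and 5 lower in rHCI against Sham, and 4 higher and 9 lower in PBS against Sham. A call here is therefore a difference from their mean, not from each of them. Bnip3l was higher by 0.78 ± 0.098 in rHCI and 0.90 ± 0.088 in PBS hearts, the largest differences of the 10 genes on this scale. Dnm1l was higher by 0.20 and 0.25, Fis1 by 0.35 and 0.35, Fundc1 by 0.34 and 0.39 and Mff by 0.19 and 0.22 in rHCI and PBS hearts (edgeR adjusted p at most 0.0203). So 5 genes were called higher and 1 lower in each comparison, against a background of 76.6% called in rHCI against Sham, 73.8% higher and 2.76% lower, and 82.8% called in PBS against Sham, 79.0% higher and 3.81% lower. Scaling to cardiomyocyte markers in place of the reference genes gave Dnm1l 0.17 and Mff 0.16 in rHCI against Sham, no longer past the threshold. Mff also lost its call in rHCI against Sham without rHCI 1 (0.18), and without single PBS libraries 2 further genes passed in PBS against Sham, Mfn1 without PBS 12 (-0.12) and Opa1 without PBS 6 (0.13).

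**Figure D3:**
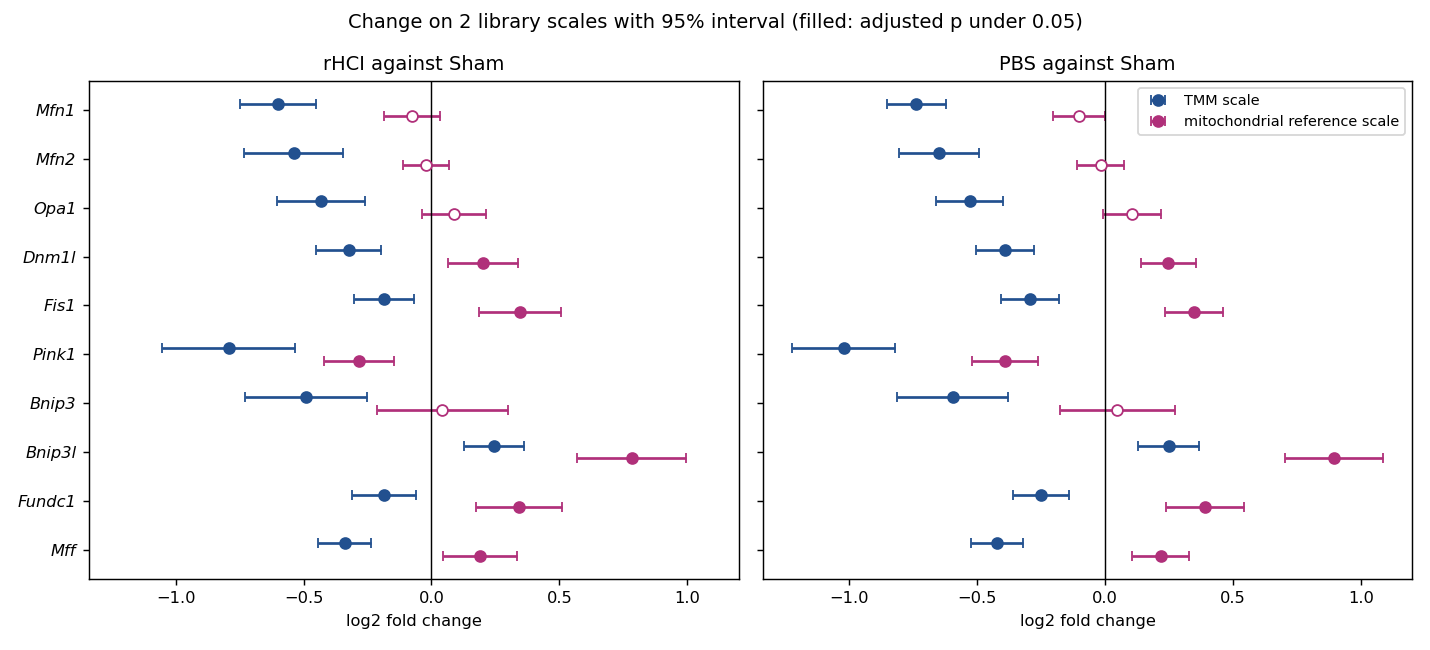
log2 fold change of each gene (horizontal axis) with its 95% interval on the TMM scale and on the scale of 22 mitochondrial reference genes, for rHCI against Sham and PBS against Sham, filled where the edgeR adjusted p was under 0.05. On the reference scale Mfn1, Mfn2, Opa1 and Bnip3 have open points near 0, Pink1 lies left of 0 and the other 5 genes lie right of it.

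Among the 10 infarcted hearts, the genes were also followed along the cardiomyocyte score, the mean log2 CPM of the 16 markers, with the group as a term in the fit. The score was 11.18 to 11.68 in rHCI hearts, 11.15 to 11.61 in PBS hearts and 11.83 to 12.07 in Sham hearts, and rHCI 3, PBS 12, rHCI 13 and PBS 14 were the lowest and highest of their groups. The score comes from the same libraries as the genes, so this is a description of how levels vary together. Slopes, in log2 CPM per unit of score, were 1.27 ± 0.20 for Pink1, 0.94 ± 0.10 for Mfn2, 0.80 ± 0.12 for Opa1, 0.62 ± 0.10 for Mfn1, 0.51 ± 0.090 for Dnm1l, 0.37 ± 0.099 for Mff and 0.34 ± 0.093 for Fis1 (edgeR adjusted p 1.27e-04 to 0.0128). Those 7 of the 10 genes passed the threshold, all with a positive slope, where 37.0% of 16383 genes passed, 2946 with a positive and 3120 with a negative slope.

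Fundc1 (0.32 ± 0.15, edgeR adjusted p 0.121), Bnip3 (0.25 ± 0.23, adjusted p 0.429) and Bnip3l (-0.15 ± 0.10, adjusted p 0.267) did not pass. The 95% interval of the Bnip3 slope ran from -0.25 to 0.75 and so included the slopes of Mfn1 and Fis1. Without rHCI 3 the calls of Fis1 and Mff were lost (slopes of 0.35 and 0.33) and 3563 genes passed in place of 6066, and without PBS 9 Fundc1 passed (0.37).

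**Figure D4:**
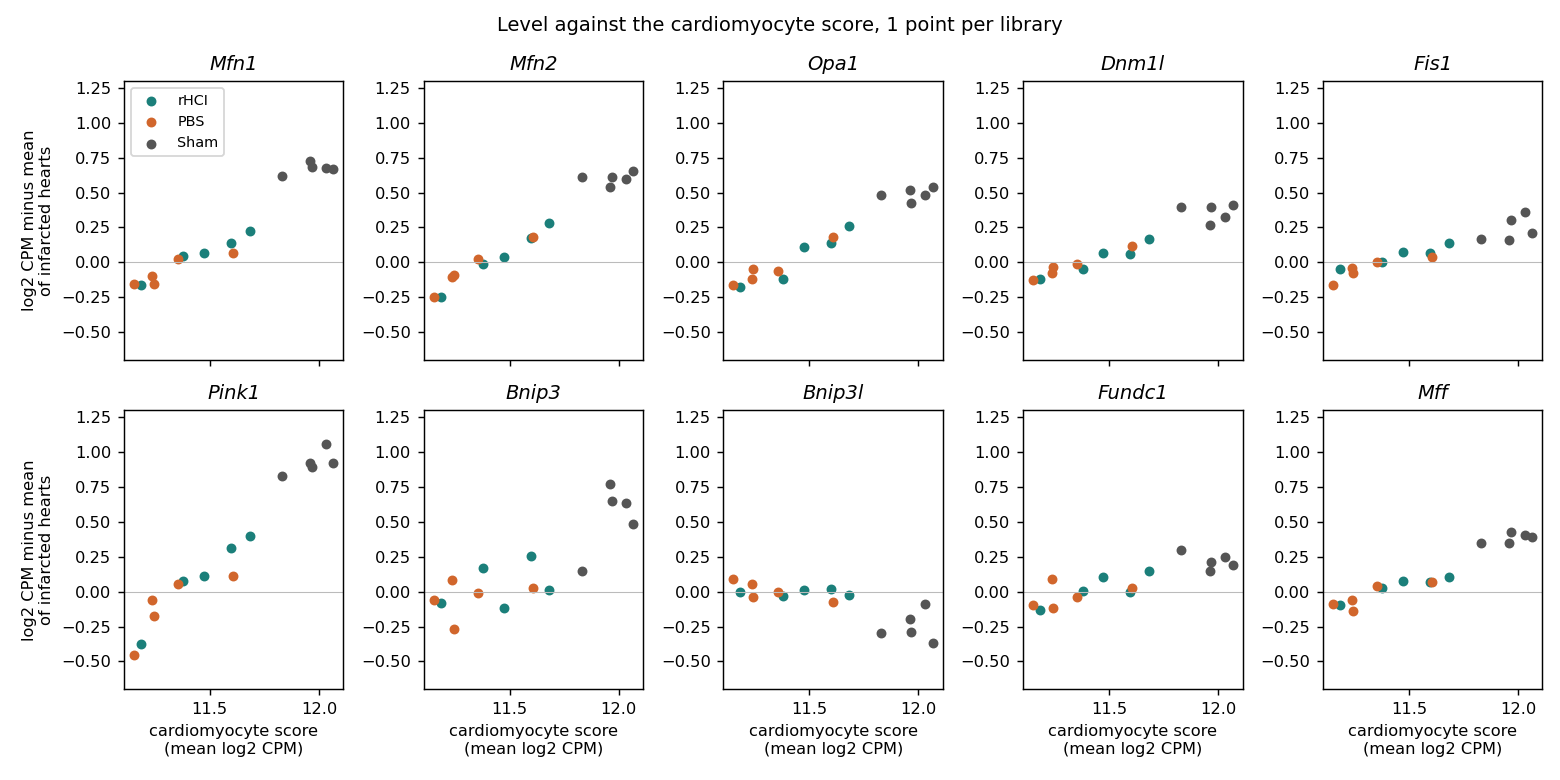
log2 CPM of each gene, less its mean over the 10 infarcted hearts (vertical axis), against the cardiomyocyte score (horizontal axis, mean log2 CPM of 16 markers), 1 point per library. Pink1 and Mfn2 climb most steeply among the rHCI and PBS points, while Bnip3 scatters and Bnip3l is nearly flat there, with its Sham points below.

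Whether the hydrogel changed these genes was asked by the comparison of rHCI with PBS hearts. None of the 10 genes passed the threshold (edgeR adjusted p 0.871 to 0.946), and 0 of them had an unadjusted p under 0.05. Over all 16383 genes tested, 0 were called, a background of 0.0%, 579 (3.53%) had an unadjusted p under 0.05, DESeq2 called 6 genes and limma-voom 3, none of them among the 10. The ranges overlapped for all 10 genes, and 0.499% of 16634 genes had ranges without overlap. The point estimate was positive for 9 of the 10 genes, with a median of 0.092 on the log2 scale, where the median of all genes was 0.0015. Pink1 had the largest value, 0.22 ± 0.14, with a 95% interval from -0.090 to 0.53, and Mfn1 had 0.13 ± 0.074 (-0.035 to 0.29). Fis1 had 0.097 ± 0.049, with the smallest unadjusted p of the 10, 0.0699 in edgeR, and an interval from -0.0093 to 0.20. The interval was narrowest for Bnip3l, from -0.10 to 0.077. Point estimates of the other 6 genes lay between 0.055 and 0.10, and each of their intervals included 0. These intervals were -0.13 to 0.33 for Mfn2, -0.11 to 0.29 for Opa1 and -0.081 to 0.19 for Dnm1l. They were -0.085 to 0.28 for Bnip3, -0.078 to 0.19 for Fundc1 and -0.044 to 0.19 for Mff.

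All 16 cardiomyocyte markers also had positive values in rHCI against PBS, with a median of 0.12, as did all 22 mitochondrial reference genes, with a median of 0.12, and none was called. On the scale of the reference genes, 8 of the 10 genes were negative and 2 positive in rHCI against PBS, with a median of -0.011, beside -0.094 for all genes, and none was called there, as among all genes (343 of 16383 genes, 2.09%, had an unadjusted p under 0.05). The part of the marker levels in the positive values on the TMM scale was not tested further.

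Ratios of paralogs within a library do not depend on the scale, and were compared per length of exon sequence. That length, of all annotated exons, sets the height of a ratio but not its log2 difference between groups. Mfn2/Mfn1 was 2.95 in rHCI, 3.01 in PBS and 2.83 in Sham hearts (antilog of the mean log2 ratio, n = 5 each). In exact two-sided permutation tests the p was 0.238 in rHCI against Sham, 0.135 in PBS against Sham and 0.500 in rHCI against PBS, with log2 differences of 0.056, 0.085 and -0.029 and overlapping ranges in each case. Bnip3l/Bnip3 was 0.320 in rHCI, 0.345 in PBS and 0.193 in Sham hearts. All infarcted hearts, at 0.283 to 0.390, exceeded all Sham hearts, at 0.170 to 0.244, of which Sham 17 was the highest. The log2 difference was 0.73 in rHCI against Sham and 0.84 in PBS against Sham, with an exact permutation p of 0.00794 in both, the smallest that 5 against 5 libraries can give, and 0.0238 after Benjamini-Hochberg adjustment over 6 tests. In rHCI against PBS it was -0.10 (exact permutation p = 0.286).

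**Figure D5:**
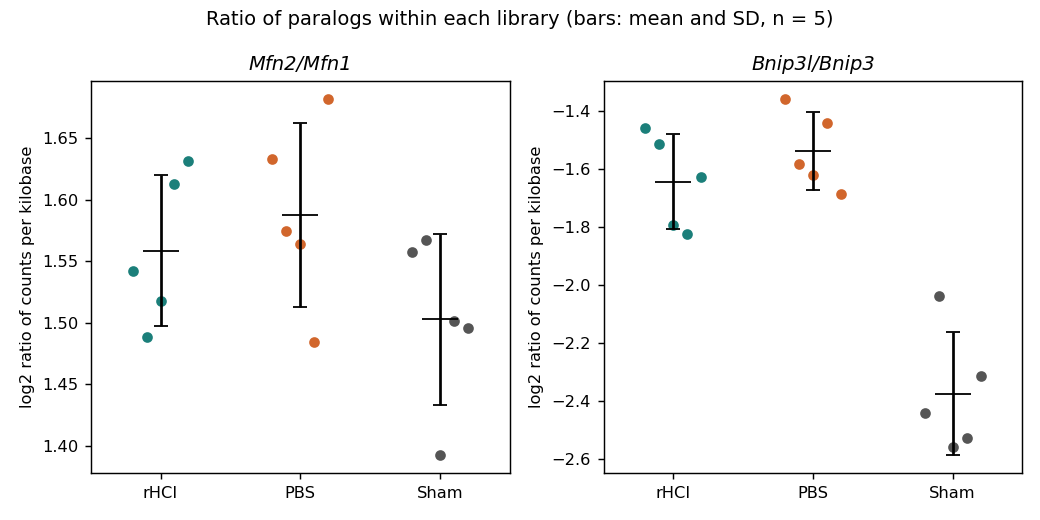
log2 ratio of counts per kilobase of Mfn2 to Mfn1 and of Bnip3l to Bnip3 in each library (vertical axes differ in range), with bars for the mean and SD of 5 libraries. The Mfn2/Mfn1 points of the 3 groups overlap, and the Bnip3l/Bnip3 points of rHCI and PBS hearts lie above all Sham points.

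Levels per kilobase of exon put the genes in nearly the same order in each group. The length was that of all annotated exons merged, 9757 bases for Mff and 1714 for Fis1. The lengths of the transcripts expressed were not measured, so the order between genes is approximate. In rHCI hearts the order ran Pink1 (184 ± 35.5 CPM per kilobase, SD, n = 5), Mfn2 (161 ± 22.0), Bnip3 (59.9 ± 6.74), Mfn1 (54.4 ± 5.31), Fis1 (33.5 ± 1.69), Dnm1l (30.5 ± 2.33), Opa1 (28.4 ± 3.61), Bnip3l (19.1 ± 0.314), Fundc1 (11.5 ± 0.870) and Mff (10.5 ± 0.563). PBS hearts had the same order, with Pink1 at 158 ± 23.3 and Mff at 10.0 ± 0.616 CPM per kilobase. In Sham hearts Pink1 was at 321 ± 19.1 and Mfn2 at 235 ± 6.60, ahead of Bnip3 (84.6 ± 13.2), Mfn1 (82.8 ± 2.12), Opa1 (38.5 ± 1.17), Dnm1l (38.4 ± 1.59), Fis1 (38.3 ± 2.35), Bnip3l (16.2 ± 1.23), Mff (13.4 ± 0.330) and Fundc1 (13.1 ± 0.519). Pink1 and Mfn2 had separate ranges in Sham hearts and overlapping ones in rHCI and PBS hearts. Ranges of neighbours in the order also overlapped for Bnip3 with Mfn1, for Fundc1 with Mff, and among Opa1, Dnm1l and Fis1, in each group.

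Over all 15 libraries, the member profiles closest to each other, by the root mean square difference of log2 CPM centred on each gene's own mean, were those of Dnm1l and Mff (0.055), Mfn1 and Mfn2 (0.071) and Fis1 and Fundc1 (0.072), and the farthest were those of Pink1 and Bnip3l (0.60). Such a distance is small for any genes that vary little. The root mean square about the gene's own mean was 0.14 for Fis1 and 0.13 for Fundc1, against 0.34 for Mfn1 and 0.32 for Mfn2. The most similar genes outside the list, among 14266, were Arfgef1 and Fars2 for Mfn1, Slc25a3 and Cs for Mfn2, Gfm1 and Trmt2b for Opa1, Vdac2 and Cd59a for Dnm1l, and Ociad1 and Dram2 for Mff. For Fis1 they were Psma2 and Smdt1, for Pink1 Rtn2 and Cox7a1, for Bnip3 Kbtbd12 and Fam122a, for Bnip3l Cwc25 and Arid4a, and for Fundc1 Vbp1 and Arl8b. The distances ran from 0.023, of Ociad1 to Mff, to 0.10, of Fam122a to Bnip3.

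Other genes of the same pathways were read from lists, with up to 4 genes named per list, those with the largest change in PBS against Sham. Of 12 partners of fusion and inner membrane proteases, 11 were lower in both comparisons and 0 higher, with a median of -0.38 in rHCI and -0.47 in PBS hearts, where 29.7% and 34.9% of all genes were lower. Fam73b, also called Miga2 and acting with the mitofusins, was at -0.64 in rHCI and -0.75 in PBS hearts, the protease gene Spg7 at -0.43 and -0.55, Slc25a46, an outer membrane protein, at -0.44 and -0.53, and the prohibitin Phb at -0.45 and -0.51. Of 6 genes of the cristae organising system tested, 5 were lower in both comparisons, and Chchd3 (-0.61 and -0.72), Apoo (-0.50 and -0.62), Immt, which encodes mitofilin (-0.48 and -0.60), and Apool (-0.38 and -0.53) were named by the rule.

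Of 12 fission partners, 7 were lower in rHCI and 8 in PBS hearts, beside 29.7% and 34.9% of all genes. In each comparison 3 were higher, no larger a share than the 34.1% and 36.5% of all genes. Inf2, a formin that builds actin at division sites, was higher by 0.72 in rHCI and 0.82 in PBS hearts, and Spire1, which works with it, by 0.49 and 0.66. The third, Mtfr2, at 2.04 and 2.02 but with a mean of at most 0.820 CPM in any group, was outside the rule and is named after its values were seen. Mtfp1, an inner membrane fission protein, was at -0.61 and -0.73, and Mtfr1 at -0.52 and -0.58 in rHCI and PBS hearts. Of 5 transport genes, 3 were lower and 1 higher in rHCI hearts, and 4 were lower and 1 higher in PBS hearts. Among all genes 29.7% and 34.9% were lower, and 34.1% and 36.5% higher. Rhot2, a GTPase that links mitochondria to motors, had -0.56 in rHCI and -0.64 in PBS hearts, and Trak1 -0.25 and -0.35. Rhot1 had -0.26 and -0.32, and the myosin Myo19 0.53 and 0.46, all past the threshold. The remaining gene, Trak2, was outside the rule and was not called in rHCI hearts. On library totals Rhot1 and Trak1 lost their calls in both comparisons, with -0.045 and -0.036 in rHCI hearts and -0.049 and -0.082 in PBS hearts.

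Among 24 mitophagy partners, 16 were lower in both rHCI and PBS hearts, and 1 was higher in rHCI and 2 in PBS hearts. Among all genes 29.7% were lower in rHCI and 34.9% in PBS hearts, and 34.1% and 36.5% higher. Gbas, also called Nipsnap2, was at -0.70 in rHCI and -0.93 in PBS hearts, the adaptor Optn at -0.71 and -0.79, Pptc7, a phosphatase that restrains Bnip3 and Bnip3l, at -0.58 and -0.76, and the receptor Bcl2l13 at -0.53 and -0.64. Outside the rule, the higher ones, Nipsnap1 (0.78 in rHCI and 0.85 in PBS hearts) and Tbk1 (0.16 in PBS hearts), are named after their values were seen, as is Park2, which encodes parkin, the ligase that Pink1 activates, at -0.53 and -0.61. The medians of the list were -0.20 and -0.26.

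Of 12 regulators of mitochondrial biogenesis, 8 were lower in rHCI and 9 in PBS hearts, while 0 and 2 were higher, with medians of -0.38 and -0.51. The shares over all genes were 29.7% and 34.9% lower, and 34.1% and 36.5% higher. Ppara, a receptor for fatty acids, was at -1.12 in rHCI and -1.33 in PBS hearts, Perm1 at -0.66 and -0.82, and Esrrg at -0.58 and -0.75. Ppargc1a, the coactivator PGC-1alpha, had -0.55 and -0.76, but its call in rHCI hearts was lost in the libraries of the shared run alone and without rHCI 1, rHCI 11, rHCI 13, Sham 16 or Sham 18 (values of -0.56 to -0.38 with 1 library left out), and on library totals the gene was not called in rHCI (-0.32) or PBS hearts (-0.48). The 2 higher ones in PBS hearts, Pprc1 (0.24) and Gabpb1 (0.16), lay outside the rule. NRF1 and GABPA are the activators whose sites were marked in the printed sequences. Gabpa had -0.25 in rHCI and -0.31 in PBS hearts, both past the threshold, and Nrf1 had 0.093 and 0.078, neither past it.

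Of 12 hypoxia and FoxO genes, 4 were higher and 3 lower in rHCI hearts and 4 higher and 5 lower in PBS hearts, with medians of -0.015 and -0.098. These counts lie near the shares over all genes, 34.1% higher and 29.7% lower in rHCI and 36.5% higher and 34.9% lower in PBS hearts. Hif1a, the oxygen-sensitive subunit of a hypoxia factor, was higher by 0.51 and 0.52 in rHCI and PBS hearts. Foxo3 (-0.55 and -0.60), the kinase gene Pdk1 (-0.49 and -0.59) and Epas1 (-0.46 and -0.58), which encodes another hypoxia factor subunit, were lower. The other higher ones, Car9, Slc2a1 and Ankrd37, had 2.30, 0.46 and 0.36 in rHCI and 2.43, 0.40 and 0.31 in PBS hearts, and are named after their values were seen, Car9 with a mean of at most 0.635 CPM in any group. Vegfa and Pgk1, the other lower ones in PBS hearts, had -0.30 and -0.098 in rHCI, neither past the threshold, and -0.37 and -0.13 in PBS hearts, and were also named afterwards. Of the 22 mitochondrial reference genes, Sdha (-0.71 and -0.89), Ndufv1 (-0.69 and -0.85), Etfa (-0.69 and -0.83) and Ndufs1 (-0.61 and -0.77) had the largest falls. No gene of any of these lists was called in rHCI against PBS.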

How the data were processed

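RNA from left ventricle was sequenced by a stranded mRNA protocol, per the labels' protocols. Raw counts of reads per gene, as whole numbers with no normalization, are what the authors deposited, in a single table. Trimmomatic, STAR, Cufflinks, edgeR, GRCm38 and mm10 are named in the submitters' processing notes, without versions or roles, and the program that counted reads, its strand option and its annotation are not named there. Of 47069 gene identifiers, 46574 were in GENCODE M21, which gave positions, exon lengths and overlaps. How reads of overlapping or near-identical genes were counted is unknown.

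Groups came from the sample titles, and no library was left out. The labels speak of 5 biological replicates per group. Were libraries not from separate animals, p-values would measure only the spread between them. Each pair of groups was tested on its own 10 libraries with edgeR 4.0.16 in R 4.3.3 (TMM, filterByExpr, glmQLFit and glmQLFTest, two-sided, Benjamini-Hochberg over all genes tested, threshold 0.05). CPM used TMM factors from all 15 libraries. Errors of fold changes are standard errors, and intervals cover 95%. The same fit was repeated with libraries scaled to 22 mitochondrial reference genes, and with a slope on the cardiomyocyte score, the mean log2 CPM (prior count 2) of 16 markers, among infarcted hearts. Paralog ratios were compared by exact two-sided permutation over 252 arrangements.

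The 10 genes, the lists and the tests were chosen with earlier results of these data known. Named genes were, per list, up to 4 with the largest change in PBS against Sham among those past the threshold with at least 5 CPM in the higher group, and per member the 2 most similar genes. Of the list symbols, 4 were matched by identifier because the table holds an older name. Library totals ran from 32978702 to 103356830, and the standard errors include the counting error at that depth. Scripts were tested on simulated data. In rHCI against PBS, log2 effects of 0.3, 0.6 and 1 were recovered for 23.9%, 77.6% and 93.9% of changed genes. There 6.47% of calls were false. Simulated counts were drawn independently for each gene, without the variation that real genes share along the cardiomyocyte score. Changed genes were taken only from those with higher counts, outside the reference and cardiomyocyte lists. These rates therefore describe the simulated data and can differ in the real comparison. Alternatives were RLE factors, library totals, DESeq2 1.42.0, limma-voom (limma 3.58.1) with quality weights, other filters, all libraries in 1 fit, the run number as covariate, the shared run alone, cardiomyocyte markers as the scale, a score of fewer genes, no group term, an added count of 1 in ratios, and each replicate left out. As covariate the run number had 2 levels, shared or other. PBS 6 was thus pooled with rHCI 1 or Sham 19, although its number differs from theirs. Leaving out the libraries with the lowest and highest score of a group was added after the data were seen.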

Additional observations from a re-analysis of the deposited data

How the results depend on the processing

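Comparisons with Sham kept all 10 genes past the threshold in their direction under every alternative except library totals, where 8 passed in PBS against Sham and 7 in rHCI against Sham. There Fundc1 turned to 0.023 in PBS against Sham and 0.032 in rHCI against Sham, Fis1 turned to 0.034 in rHCI against Sham, and Dnm1l (-0.11 in rHCI against Sham) and Fis1 (-0.019 in PBS against Sham) were not called. Rhot1, Trak1 and Ppargc1a lost their calls on library totals in both comparisons. The cause was not tested beyond the shift of the median of all genes. In rHCI against PBS, the count of genes called was 6 with DESeq2, 3 with limma-voom, 3 without rHCI 3 and rHCI 13 (an alternative chosen after seeing the data), and 0 to 3 with each replicate left out, also on the reference scale, and none of the 10 genes passed in any. Foxo3 turned to -0.0079 on library totals, and scaled to cardiomyocyte markers Mfn1 turned to -0.021 in rHCI against PBS. Genes called on the cardiomyocyte score numbered 3563 to 6303 with each replicate left out, and 5 to 8 of the 10. Single libraries left out turned small uncalled values in rHCI against PBS, with ranges of -0.031 to 0.0085 for Bnip3l, -0.0069 to 0.11 for Phb, -0.0077 to 0.21 for Mtfp1, -0.029 to 0.13 for Rhot2, -0.015 to 0.13 for Myo19, -0.062 to 0.10 for Foxo3 and -0.087 to 0.029 for Hif1a. On the reference scale Bnip3 ran from -0.027 to 0.12 in PBS against Sham, from -0.032 to 0.11 in rHCI against Sham and from -0.053 to 0.060 in rHCI against PBS, and there Mfn2 ran from -0.012 to 0.012, Opa1 from -0.039 to 0.0085, Fis1 from -0.048 to 0.036 and Mff from -0.064 to 0.016. No paired analysis was possible because no replicate number occurs in more than 1 group.

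A missing call in rHCI against PBS does not show that the groups are alike, and the printed intervals give the differences that the data leave. Comparisons with Sham carry infarct, injection and tissue makeup together, and mean levels in ventricle cannot assign a change to a cell type. RNA levels give no protein level, cleavage of Opa1, phosphorylation of Dnm1l or mitophagy flux.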
